A study of Homo sapiens with 6 samples.

Results

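The genes described here are 33 nuclear genes for mitochondrial protein import, out of 19785 protein-coding genes, followed through 4 Myc ChIP-seq peak lists. They were chosen by name, as the subunits and partners of the TOM, TIM, SAM, PAM and MIA import machineries. No measured value entered the choice, but earlier results of these data were known. A gene counted as occupied in a library when a Myc peak had its summit within 1 kb of one of its transcription start sites (TSSs). Nearly all mitochondrial proteins are made in the cytosol and enter through the TOM pore of the outer membrane. From there TIM23 and its PAM motor draw precursors with a presequence into the matrix, TIM22 and the small TIM chaperones serve carriers of the inner membrane, SAM inserts barrel proteins, and MIA folds cysteine-rich proteins between the membranes. Myc is a transcription factor that binds DNA together with its partner MAX, with the E-box CACGTG as its canonical site, and genes for mitochondrial biogenesis are among its known targets.

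The cells were MDA-MB-231, an established human triple-negative breast cancer line. Parental cells were compared with TKO cells, in which TXNIP (thioredoxin interacting protein) was deleted by CRISPR/Cas9 and which were isolated from single cells, so TKO stands for a clonal derivative and clone and genotype cannot be told apart. Both lines were grown in the same medium with 10% serum and no other treatment, and chromatin was precipitated with the same Myc antibody (D3N8F). Each line had 2 Myc libraries, called biological replicates by the study, and 1 input sample that was not analysed here. A peak list shows neither the TXNIP deletion nor any marker level, so the labels of the lines were not checked.

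The lists differed in length and depth, and this bears on every comparison below. The parental lists held 3720 and 5719 peaks (replicates 1 and 2) and the TKO lists 27213 and 25887. The number of reads at each summit was recovered from the deposited fold enrichment and p-value, which also gave a depth of 26.4, 22.2, 19.9 and 13.0 M reads in the same order. Summit reads are given as RPM, the reads at the summit for each 1000000 reads of the library. The lowest summit of any listed peak lay between 0.451 and 0.537 RPM in the 4 lists. A gene without a peak is one whose signal did not pass the authors' threshold, which does not show that Myc is absent from it.

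Of the 33 import genes, 10 had an E-box lying whole within 50 bp of the summit of their highest-fold promoter peak in at least 1 list. These 10 sites are shown because, for several members, that summit lay near the site in some lists and away from it in others. Each line gives 30 bases of the GRCh37 (hg19) reference in the direction of the gene, with the E-box in capitals. CACGTG reads the same on both strands.

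TIMM9: cattactgctccCACGTGttctttcccatc
TIMM8A: ccgtcgcggagaCACGTGaaggtcggtgcg
CHCHD4: cctgccatacccCACGTGtttacattttgc
HSPA9: cgcccctcacccCACGTGgttggaggtttc
TIMM44: ggtcggtggatcCACGTGcctgtaccacct
TIMM10: ccggaagtaaccCACGTGcttccgctggag
TOMM20: aaagtccgtggtCACGTGcaaattcccgac
TIMM50: ccacctcccaccCACGTGggtgccggagga
TIMM8B: ctccttgcaggcCACGTGcccgtagaaaag
MTX1: agcagtacaggcCACGTGcagtttggcaag

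The window of TIMM9 is chr14:58893880-58893909, on the minus strand, and that of HSPA9 is chr5:137911092-137911121, also minus. Both E-boxes lie beside an annotated TSS of the gene, at -3 and -1 bp from the nearest one, in annotated UTR. For TIMM9 that is not the main TSS, which is at chr14:58894249. The E-boxes of TIMM8A (chrX:100603685-100603714, minus) and TIMM10 (chr11:57298211-57298240, minus) lie in UTR as well, at 30 and 1 bp. Those of MTX1 (chr1:155178656-155178685, plus) and TIMM8B (chr11:111957015-111957044, minus) are in coding sequence, at 82 and 450 bp. The E-boxes of TIMM50 (chr19:39971802-39971831, plus) and CHCHD4 (chr3:14165766-14165795, minus) are intronic, at 335 and 589 bp. Only TOMM20 (chr1:235292303-235292332, minus) and TIMM44 (chr19:8008898-8008927, minus), among these 10, have the site upstream of the gene, at -166 and -362 bp.

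Nearly every import gene had a Myc promoter peak in TKO cells, and fewer had one in parental cells. Such a peak was present at 15 of the 33 genes in parental replicate 1 and at 19 in parental replicate 2. In each TKO library it was present at 32. The groups did not overlap, with means of 17.0 ± 2.83 (SD, n = 2) and 32.0 ± 0.0 (SD, n = 2) genes. An exact two-sided permutation test of the library counts had p = 0.333, and 2 libraries against 2 can give no smaller p. Over all protein-coding genes the shares were 12.2% and 12.9% in the parental lists and 49.1% and 49.7% in the TKO lists, against 45.5%, 57.6%, 97.0% and 97.0% of the import genes. That background holds every such gene, expressed in these cells or not, and expression was not examined here.

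**Figure D1:**
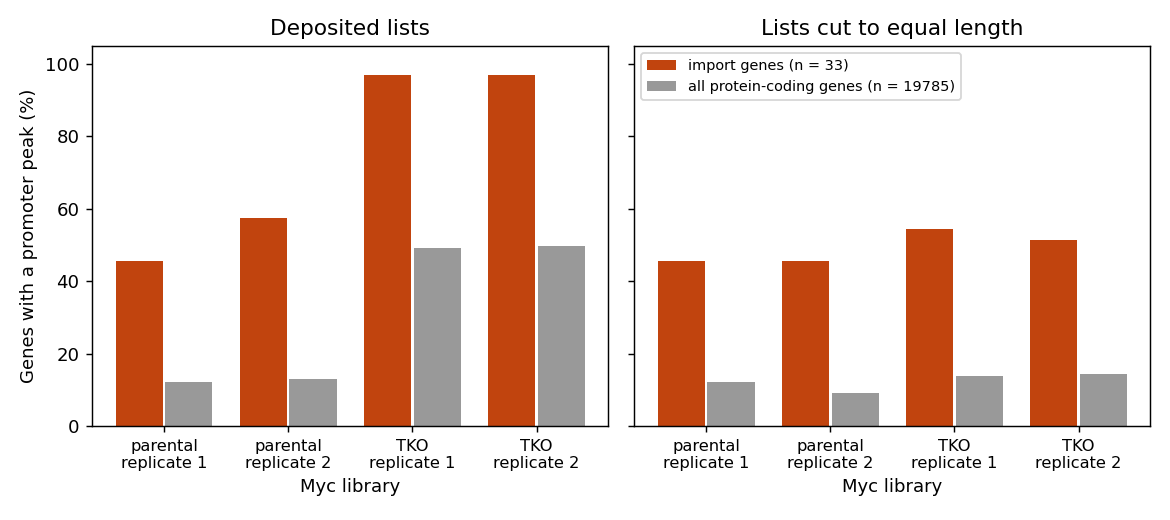
Bars give the percent of genes with a Myc promoter peak in each library, for the 33 import genes and for all 19785 protein-coding genes, with the lists as deposited on the left and with each list cut to its 3720 peaks of highest fold on the right. The import genes stand above all genes in every library, at 45.5% to 97.0% in the deposited lists and at 45.5% to 54.5% in lists of equal length.

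The 15 genes with a promoter peak in all 4 lists were TOMM20, TOMM22, TOMM70, TOMM5, TOMM6, TOMM34, TIMM23, HSPA9, TIMM44, TIMM22, TIMM8A, TIMM9, TIMM10, TIMM13 and CHCHD4. That is 45.5% of the members, beside 9.32% of all genes. TIMM17A, TIMM17B, GRPEL2 and SAMM50 had a peak in parental replicate 2 and in both TKO lists. TOMM40, TOMM40L, TOMM7, TIMM50, TIMM21, GRPEL1, DNAJC19, PAM16, TIMM29, TIMM10B, TIMM8B, MTX1 and MTX2 had one in both TKO lists and in no parental list. These 13 are 39.4% of the members, beside 29.8% of all genes. In all, 32 members had a peak in both TKO lists, beside 45.2% of all genes, and GFER had none in any list. No member had a parental peak without a peak in both TKO lists.

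The difference in number between the lines was smaller in lists cut to equal length. That cut removes most TKO peaks by construction, so it cannot show why the numbers differ. With each list cut to its 3720 peaks of highest fold, 15 and 15 members had a promoter peak in parental replicates 1 and 2, and 18 and 17 in TKO. The shares over all genes were then 12.2%, 9.01%, 13.9% and 14.3%. Only GRPEL2 and PAM16 then had a peak in both TKO lists and in neither parental list.

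Signal at the summit was compared at the 15 members occupied in all 4 lists. Their median was 1.67 and 1.67 RPM in parental replicates 1 and 2, and 3.81 and 4.83 in TKO. Every one of the 15 had more RPM in both TKO libraries than in either parental library, which also held for 99.0% of the 1843 genes occupied in all 4 lists. The ratio of the medians was 2.59 (exact permutation p = 0.333, the smallest possible). Gene by gene the TKO to parental ratio ran from 2.11 at CHCHD4 to 3.04 at TOMM20, with a median of 2.53, beside 2.56 over all genes occupied in all 4 lists. The members thus lay inside the range of all such genes, which ran from 0.816 to 6.78. Genes without a parental peak have no ratio, so these values describe only members strong enough to be listed in parental cells. Reads were extended further in TKO, to 182 and 201 bp against 140 and 151 bp, with extension read off the narrowest peak in the list, and longer extension piles more reads on a summit. With the reads also divided by that length the ratio of the medians was 1.96, and both TKO values stayed above both parental values at 15 of the 15 members and at 96.9% of all such genes.

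**Figure D2:**
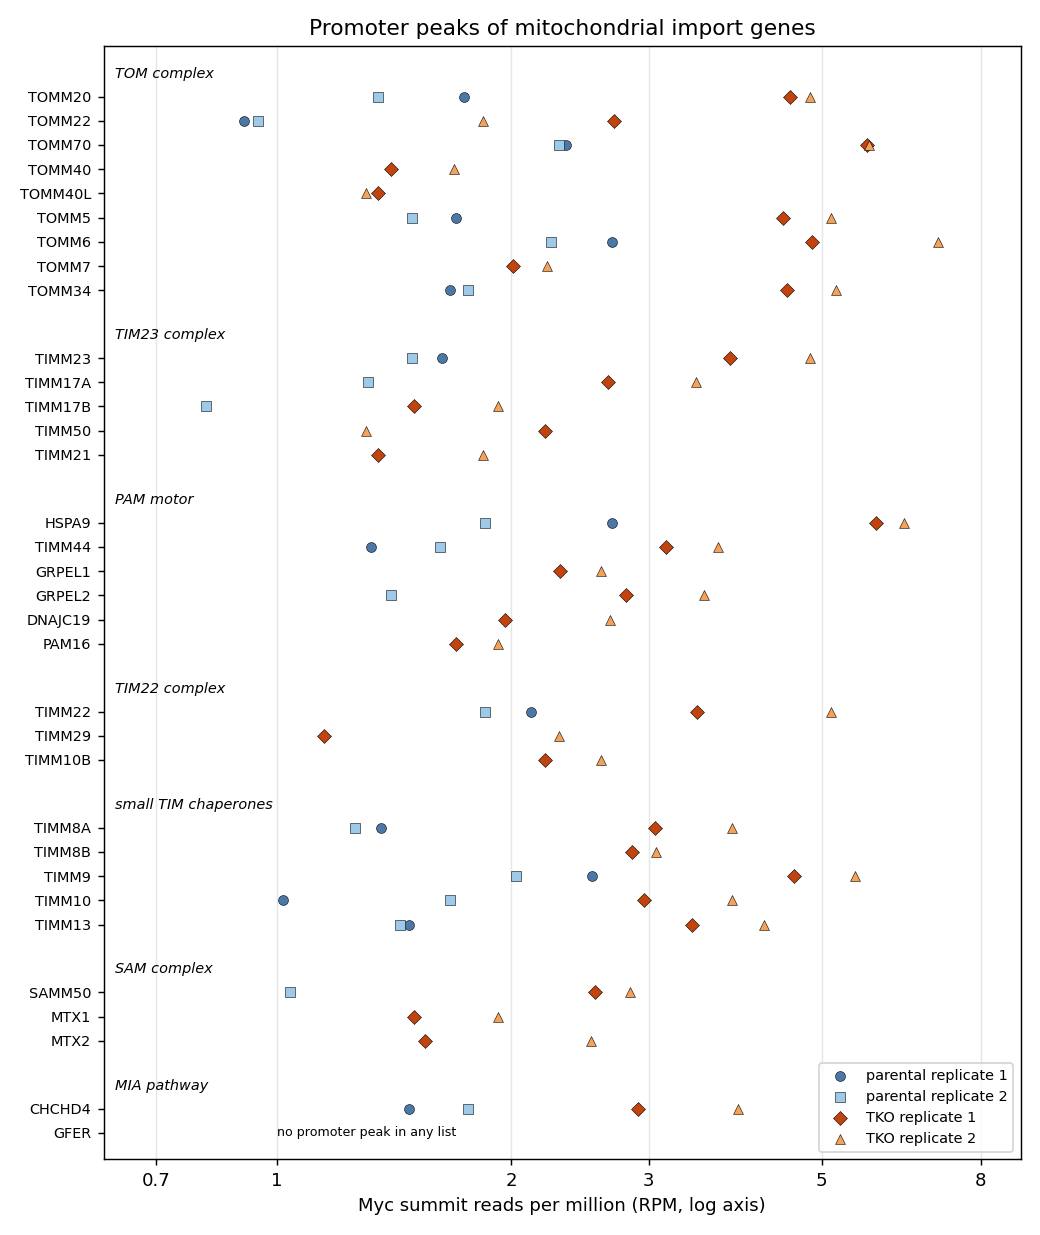
Each row is an import gene, ordered by complex, and each point its Myc summit in RPM in 1 library on a log axis; a missing point means no promoter peak in that list. TKO points lie to the right of parental points at the 15 genes with all 4 points, HSPA9, TOMM70 and TOMM6 reach the highest levels, and GFER has no point.

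The TOM receptors and the small subunits TOMM5 and TOMM6 were occupied in both lines, while the channel genes and TOMM7 were listed in TKO alone. TOMM20, a receptor for presequences, had 1.74 and 1.35 RPM in parental cells against 4.56 and 4.83 in TKO. TOMM22, the central receptor that joins the pores, had 0.908 and 0.947 in parental cells against 2.71 and 1.84 in TKO. TOMM70, the receptor for carrier precursors, had 2.35 and 2.30 in parental cells against 5.72 and 5.75 in TKO, and its replicates were the closest among these receptors. TOMM70 was next to HSPA9 as the strongest import gene in TKO by fold, at percentiles 99.6 and 99.3 of its lists. Its peak in TKO replicate 1 was chr3:100119731-100120886, with the summit 27 bp upstream of the TSS. TOMM40, the pore itself, had no parental peak and 1.40 and 1.69 RPM in TKO. TOMM40L, a paralogue of the pore, had the lowest mean rank of the members in TKO, at percentiles 51.9 and 4.09, with 1.35 and 1.30 RPM and no parental peak.

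In parental cells TOMM5 and TOMM6, small subunits that stabilise the pore, ranked higher by reads than by fold. TOMM5 had 1.70 and 1.49 RPM in parental cells against 4.46 and 5.14 in TKO, without overlap. By reads its parental peaks stood at percentiles 81.1 and 70.9 of their lists, and by fold at 1.59 and 0.184. The local background that MACS2 set against its summit was 10.5 and 9.70 times the lowest background of the list in parental cells against 3.82 and 4.04 times in TKO, and fold is the ratio of reads to this background. At member summits the median of that multiple was 3.90, 4.04, 3.06 and 3.27 in the 4 lists. TOMM6 had 2.69 and 2.25 RPM in parental cells against 4.86 and 7.06 in TKO, the last being the highest value of any member. Its background was high in both lines, at 8.71, 8.08, 7.80 and 7.61 times the lowest, and its rank by fold was 50.3, 35.0, 84.1 and 92.6. TOMM7, a further small subunit, had no parental peak and 2.01 and 2.22 RPM in TKO. It stood at percentiles 80.5 and 76.1 by reads and only 30.2 and 40.0 by fold. TOMM34, a cytosolic helper of the receptors, had 1.67 and 1.76 RPM in parental cells against 4.51 and 5.22 in TKO, and by mean percentile of fold over the TKO lists only HSPA9 and TOMM70 ranked above it among the members.

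**Figure D3:**
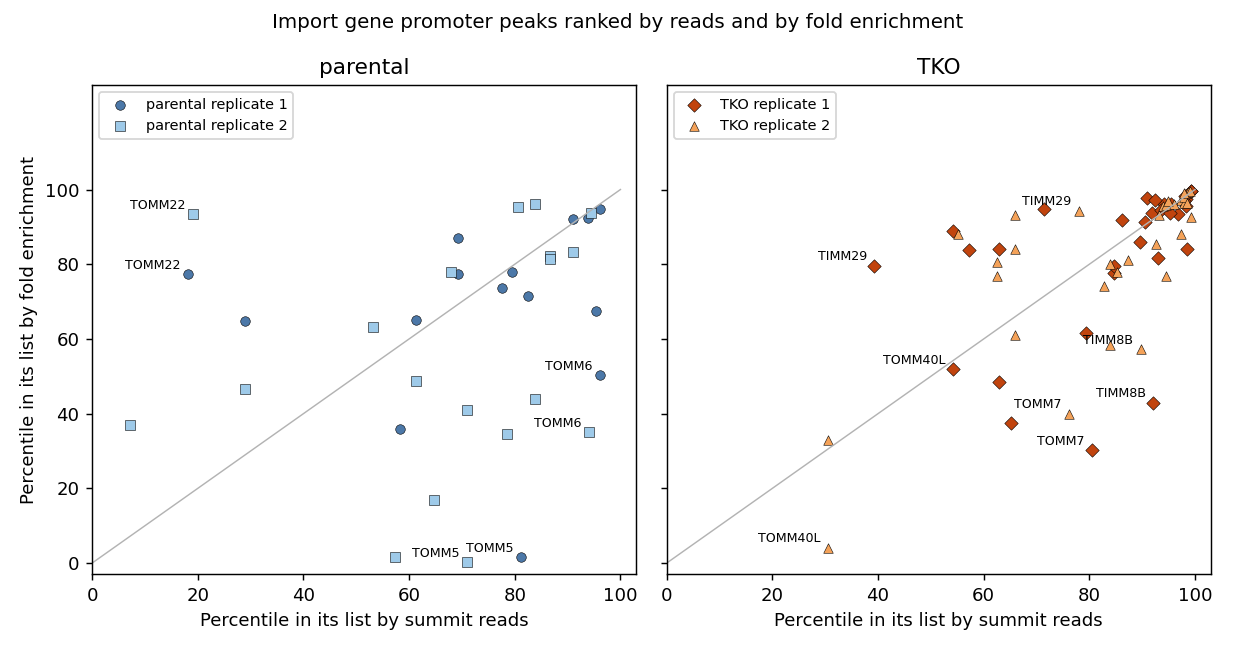
Each point is an import gene's promoter peak in 1 library, placed by its percentile among all peaks of that list by summit reads (horizontal) and by fold enrichment over local background (vertical); the line marks equal percentiles. TOMM5 in parental cells, at 81.1 and 70.9 by reads and 1.59 and 0.184 by fold, lies farthest below the line, and TOMM22 in parental cells lies farthest above it.

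In the TIM23 complex 1 of 5 genes was occupied in all 4 lists. TIMM23, the channel, had 1.63 and 1.49 RPM in parental cells against 3.81 and 4.83 in TKO. Its TSS at chr10:51623350 lies in a segment that is duplicated in the genome with a near-identical copy, TIMM23B, and reads cannot be told apart where the copies are identical. TIMM17A, which lines the channel, had no peak in parental replicate 1, 1.31 RPM in parental replicate 2, and 2.66 and 3.45 in TKO. TIMM17B, its paralogue on the X chromosome, likewise had no peak in the first parental list, 0.811 in the second, and 1.50 and 1.92 in TKO. TIMM17A was thus higher than TIMM17B in each list that held both, and TIMM17B ranked among the lowest members in TKO by fold, at 48.6 and 61.0. TIMM50, the receptor that hands precursors from TOM to TIM23, was listed in TKO alone, with 2.21 and 1.30 RPM. Its TKO replicates differed in rank, at percentiles 77.7 and 32.9. TIMM21, which links TIM23 to TOM, was also listed in TKO alone, with 1.35 and 1.84 RPM.

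By fold, the PAM motor held the strongest peak of the whole set in TKO. HSPA9, the mitochondrial HSP70 that pulls precursors into the matrix, had 2.69 and 1.85 RPM in parental cells against 5.87 and 6.37 in TKO. It stood at percentiles 99.6 and 99.5, and spanned chr5:137910590-137911959 in TKO replicate 1. TIMM44, which tethers HSPA9 to the channel, had 1.32 and 1.62 RPM in parental cells against 3.16 and 3.68 in TKO, without overlap. GRPEL1 and GRPEL2 are the nucleotide exchange factors of HSPA9. GRPEL1 had no parental peak and 2.31 and 2.61 RPM in TKO, while GRPEL2 had 1.40 in parental replicate 2 and 2.81 and 3.53 in TKO. The J-domain cofactor DNAJC19 and its regulator PAM16 were listed in TKO alone. DNAJC19 had 1.96 and 2.68 RPM, and PAM16 had 1.70 and 1.92. PAM16 ranked higher than DNAJC19 by fold, at 94.9 and 93.3 against 61.6 and 77.9, over a background only 1.31 and 1.31 times the lowest of its lists.

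Among TIM22 genes and small TIM chaperones, the genes named TIMM8A, TIMM9, TIMM10, TIMM13 and TIMM22 were occupied in every list. TIMM22, the carrier translocase, had 2.12 and 1.85 RPM in parental cells against 3.46 and 5.14 in TKO. In each parental list it had 2 promoter peaks, the stronger being 224 and 227 bp wide with summits at -480 and -467 bp. The other had its summit 53 and 56 bp from the TSS. In each TKO list it had 1 peak, 1181 and 1032 bp wide, with summits at -65 and -427 bp. TIMM29, a TIM22 subunit, and TIMM10B, a small TIM attached to TIM22, had no parental peak. TIMM29 had 1.15 and 2.30 RPM in TKO and TIMM10B had 2.21 and 2.61. TIMM29 thus had the lowest TKO replicate 1 value of all members, and its replicates lay far apart.

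TIMM9 and TIMM10 form the main chaperone ring of the intermembrane space. TIMM9 had 2.54 and 2.03 RPM in parental cells against 4.61 and 5.52 in TKO. TIMM10 had 1.02 and 1.67 in parental cells against 2.96 and 3.84 in TKO. TIMM10 was higher in TKO by reads but not by rank: its percentile by fold was 64.9 and 95.4 in parental cells against 81.7 and 76.9 in TKO, where the groups overlap. The background at its summit was 2.44 and 2.42 times the lowest in parental cells against 4.80 and 5.98 times in TKO. TIMM8A and TIMM13 form a second ring. TIMM8A had 1.36 and 1.26 RPM in parental cells against 3.06 and 3.84 in TKO, and TIMM13 had 1.48 and 1.44 and then 3.41 and 4.22. TIMM8B, a paralogue of TIMM8A, had no parental peak. With 2.86 and 3.07 RPM in TKO it was the strongest by reads of the members without a parental peak, yet by fold it stood at only 42.9 and 57.2, over a background 7.80 and 5.98 times the lowest.

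The SAM complex had no gene with a peak in parental replicate 1. SAMM50, the barrel protein that inserts other barrels, had 1.04 RPM in parental replicate 2 and 2.56 and 2.84 in TKO. MTX1 and MTX2, the metaxins that partner it, were listed in TKO alone. MTX1 had 1.50 and 1.92 RPM and MTX2 had 1.55 and 2.53. In the MIA pathway the receptor and the enzyme that serves it differed. CHCHD4 (MIA40), which forms disulphide bonds in incoming proteins, had 1.48 and 1.76 RPM in parental cells against 2.91 and 3.91 in TKO. GFER, the oxidase that regenerates CHCHD4, had no promoter peak. The nearest summit to any of its TSSs, with the main one at chr16:2034194, was 19399 and 19454 bp away in the parental lists and 12132 and 12244 bp away in TKO. No E-box lay within 1 kb of a GFER TSS, a statement about these letters in that window only.

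Members with a parental peak had the higher median in TKO. The TKO values had no part in sorting the members by their parental lists. The 15 members listed in both parental libraries had medians of 3.81 and 4.83 RPM in TKO replicates 1 and 2. The 4 listed in 1 parental library had 2.61 and 3.14, and the 13 listed in neither had 1.70 and 2.22. In replicate 1 the 15 ran from 2.71 to 5.87 and the 13 from 1.15 to 2.86. In replicate 2 the 15 ran from 1.84 to 7.06 and the 13 from 1.30 to 3.07, and 9 of the 13 lay above TOMM22, the lowest of the 15. All protein-coding genes followed the same order, with medians of 3.41, 2.01 and 1.35 in replicate 1 and 3.84, 2.45 and 1.69 in replicate 2. Genes are not replicates of a condition, and no test was made of these differences.

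**Figure D4:**
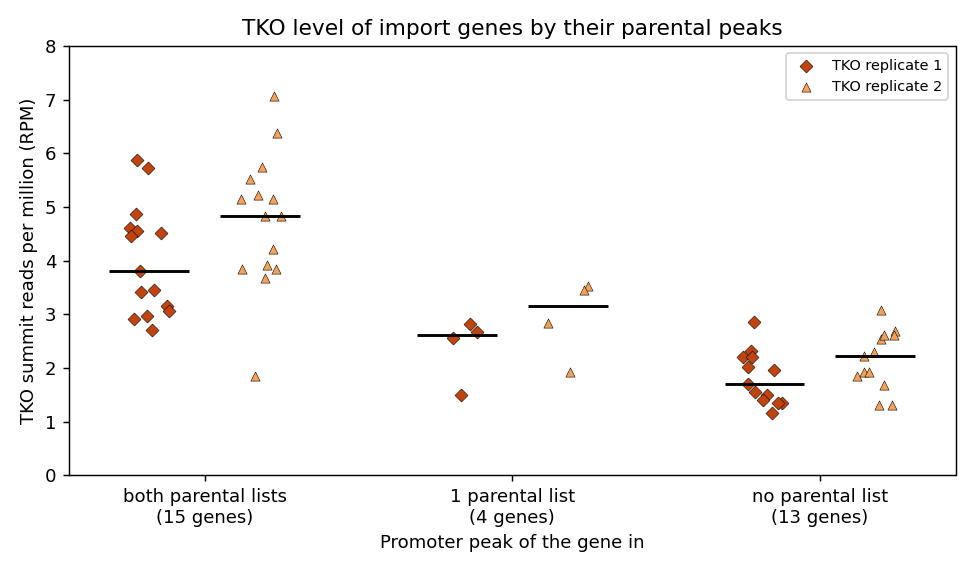
Points are import genes with a peak in both TKO lists, placed by their TKO summit RPM and split by whether they had a promoter peak in both, 1 or no parental list; bars are medians. Medians step down from 3.81 and 4.83 through 2.61 and 3.14 to 1.70 and 2.22 RPM.

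Within a cell line the members kept much of their order. Over the 32 members in both TKO lists, Spearman's rho of summit reads was 0.922 between replicates, and over the 15 in both parental lists it was 0.716. These are descriptions across genes, which share library and depth. TKO replicate 2 was above replicate 1 at 29 of 32 members, as at 80.1% of all genes occupied in both. TOMM22, TOMM40L and TIMM50 were the exceptions.

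Rank by fold was compared next. The median percentile of the members was 73.7 and 48.8 in the parental lists and 91.6 and 88.1 in TKO, beside 56.8, 56.8, 71.0 and 70.6 for all promoter peaks. The difference between lines was 28.6 (exact permutation p = 0.333, the smallest possible), from means of 61.2 ± 17.6 (SD, n = 2) and 89.9 ± 2.44 (SD, n = 2). It was 16.2 without parental replicate 2, and 13.5 when peaks were ranked by −log10 p-value. A percentile is set by what else a list holds. In lists of equal length the medians were 73.7, 65.9, 69.0 and 72.9, the groups overlapped, and the difference was 1.17 (exact permutation p = 1.0).

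Peaks of import genes were wider in TKO. The median width was 328 and 314 bp in parental cells against 668 and 739 bp in TKO. The TKO mean was 2.19 times the parental one (exact permutation p = 0.333, the smallest possible). All promoter peaks had medians of 243, 241, 468 and 475 bp, so members were wider than these in every list. At each of the 15 members occupied in all 4 lists the narrower TKO peak was wider than the wider parental peak. The matching share of all genes was not counted, so this is not shown to be particular to the members. The widest in TKO replicate 1 were TOMM6 at 1400 bp and HSPA9 at 1370 bp. HSPA9 measured 571 and 354 bp in parental cells. Only the highest-fold promoter peak was measured. HSPA9 and TIMM22 had 2 promoter peaks in each parental list and 1 in each TKO list, and TOMM70 and TIMM44 had 2 in parental replicate 2 alone. TOMM34 had 2 in TKO replicate 2 alone, CHCHD4 in all lists but parental replicate 1, and TIMM13 in both replicates 1. Longer read extension and higher signal both move with width here, and their parts were not tested.

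Most summits lay close to a TSS. Within 100 bp were 10 of 15, 13 of 19, 21 of 32 and 21 of 32 summits, or 66.7%, 68.4%, 65.6% and 65.6%, beside 47.8%, 47.8%, 37.8% and 39.1% of all promoter summits. The median absolute distance was 53.0 and 46.0 bp in parental cells against 65.0 and 60.5 bp in TKO. The groups did not overlap, with exact permutation p = 0.333, the smallest possible, but the difference of 13.2 bp became -1.0 bp when the peak nearest the TSS stood for each gene. GC content within 100 bp of the summit had a median of 62.7% to 64.7% in the 4 lists, beside 63.2% to 64.7% for all promoter summits.

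**Figure D5:**
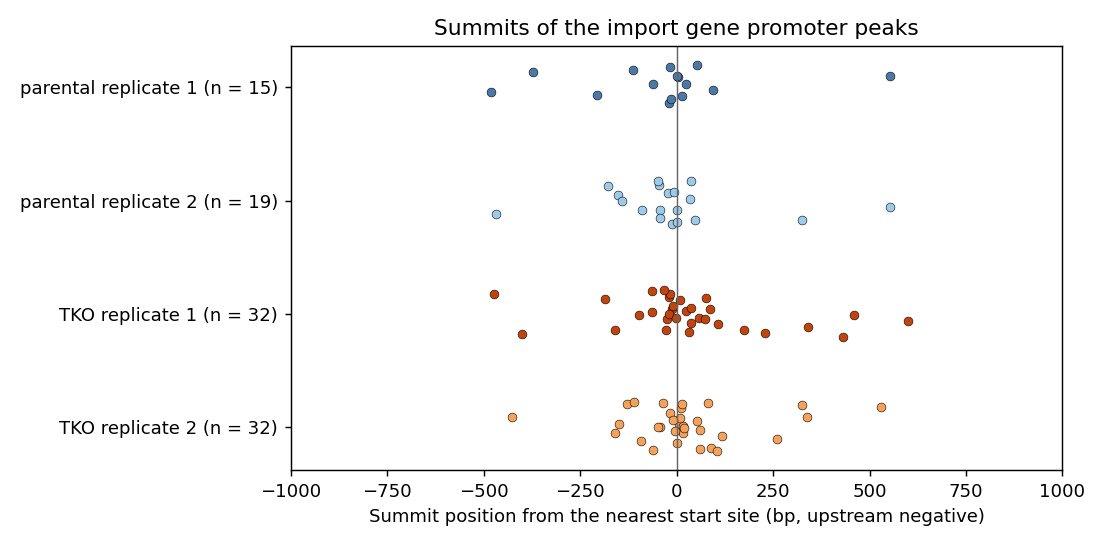
Each point is the summit of 1 import gene's promoter peak, placed by its distance in bp from the nearest TSS of the gene, with upstream negative, in 1 row per library. The points crowd around 0 in each row, and CHCHD4 stands at 553 to 554 bp downstream in the parental rows and at 601 and 531 bp in the TKO rows.

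A few members had summits away from the TSS. The highest-fold peak of CHCHD4 was inside its gene, at 554, 553, 601 and 531 bp in the 4 lists, beside the intronic E-box shown above. In parental replicate 2 and TKO replicates 1 and 2 CHCHD4 had 2 promoter peaks, the other with its summit 290, 289 and 363 bp from the TSS. TOMM20 peaked at -206 and -48 bp in parental cells against at 340 and 324 bp in TKO, inside a peak that was 1308 and 1277 bp wide in TKO. The highest-fold summit of TIMM44 alternated, at -372 and 0 bp in parental cells against at -402 and -35 bp in TKO. It was at a like place in the replicates 1 of both lines and at another in the replicates 2. In parental replicate 2 TIMM44 had 2 promoter peaks, and the place of the other was not examined. Between TKO replicates the summits of the 32 members were 57.5 bp apart in the median, and 15 of 32 lay within 50 bp of each other.

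E-boxes were then counted at 1 summit per gene and list, that of the highest-fold promoter peak. A CACGTG lay whole within 50 bp of the summit at 7 of 15 and 3 of 19 members in parental cells and at 6 of 32 and 3 of 32 in TKO. These are 46.7%, 15.8%, 18.8% and 9.38%, and the groups overlap (difference -17.2 percentage points, exact permutation p = 0.667). Without parental replicate 1 the difference was -1.73. The same window held an E-box at 21.6%, 18.5%, 9.14% and 8.10% of all promoter summits, and windows 1 kb to either side of those summits did so in 1.28% to 1.49% of cases. Over the same 15 members in every list the counts were 7, 3, 5 and 1, beside 23.9%, 21.9%, 21.2% and 20.7% of the 1843 genes occupied in all 4 lists. Within 1 kb of a TSS, 20 of the 33 members had an E-box (60.6%), beside 35.8% of all protein-coding genes.

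TIMM9 was the only member with an E-box within 50 bp in both TKO lists. Its summit lay 0 bp from the E-box in parental replicate 1, 97 bp in parental replicate 2, and 0 and 11 bp in TKO. At TIMM8A the distances were 20, 2, 3 and 48 bp, and the last missed the window because the whole motif had to lie inside it. CHCHD4 had 33, 34, 9 and 56 bp. HSPA9, the strongest member by fold in TKO, peaked 2 and 0 bp from its E-box in parental cells against 46 and 54 bp from it in TKO. TIMM10 had 20 and 94 bp in parental cells against 19 and 95 bp in TKO, and TIMM44 had 8 and 359 bp and then 38 and 324 bp. At both genes the summit of the highest-fold peak was near the E-box in the replicates 1 and away from it in the replicates 2. TIMM44 had 2 promoter peaks in parental replicate 2, and the distance of the other from the E-box was not examined. TOMM20 was near its E-box only in parental replicate 1, at 38 bp, and lay 115, 503 and 487 bp from it in the other lists. Among members without a parental peak, TIMM50 (159 and 1 bp in TKO), TIMM8B (17 and 447 bp) and MTX1 (56 and 20 bp) were each near an E-box in 1 of the TKO lists. The other 22 members with a peak had none within 50 bp of their highest-fold summit in any list, and they include TOMM70, TOMM34, TOMM5 and TOMM6. Further promoter peaks, such as those of GRPEL1, TIMM22, TIMM13 and TIMM17B, were not counted here. TOMM70 and TOMM6 had no E-box within 1 kb of a TSS.

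Several import genes share their promoter with a neighbour. At 9 members the TKO summits lay within 1 kb of a TSS of another protein-coding gene in both lists, in each case on the opposite strand. How often this holds over all protein-coding genes was not counted, so 9 cannot be called high or low. The pairs, with the gap between their closest TSSs, were TIMM10B and ARFIP2 (22 bp), TIMM17B and PQBP1 (52 bp), TIMM9 and KIAA0586 (69 bp), TIMM8B and SDHD (74 bp), TIMM29 and YIPF2 (130 bp), CHCHD4 and TMEM43 (182 bp), TOMM70 and LNP1 (450 bp), TIMM21 and FBXO15 (689 bp) and MTX1 and THBS3 (714 bp). SDHD is a subunit of succinate dehydrogenase, so the TIMM8B summits stand at a promoter of mitochondrial genes on both strands. At none of the 9 was the summit nearer the neighbour in both TKO lists, but at TIMM17B, TIMM21, TIMM29 and TIMM10B it was so in 1 of them. When each peak was given to its nearest gene alone, TIMM29 and TIMM10B no longer had a peak in TKO replicate 2.

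Genes around the import machinery were counted in the same way. The presequence and peptide proteases, PMPCA and its kin, had a promoter peak at 2 and 3 of 7 in parental cells against at 7 and 6 in TKO, where IMMP1L had none in replicate 2. Insertases and import partners such as OXA1L and MTCH2 had a peak at 0 and 0 of 9 in parental cells against at 8 and 8 in TKO, with TOMM20L as the gene without one. The MICOS genes, which shape cristae, had one at 3 and 1 of 7 in parental cells against at 6 and 6 in TKO, with APOOL as the gene without one. Matrix folding genes had one at 2 and 2 of 4 in parental cells against at 4 and 4 in TKO. In the latter list HSPD1 and HSPE1, which encode the matrix chaperonin and its lid, stand head to head and share 1 peak, with 2.27 and 1.76 RPM in parental cells against 6.87 and 7.98 in TKO. Over these 27 genes the counts were 7, 6, 25 and 24, beside the 12.2%, 12.9%, 49.1% and 49.7% of all protein-coding genes.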

How the data were processed

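Myc ChIP-seq was analysed in 4 libraries of MDA-MB-231 cells, 2 parental and 2 TKO, grouped by their titles; 2 input samples were not analysed here. The authors aligned reads of 50 bases to hg19 with Novoalign 3.08.02 and called peaks in each library with MACS2 2.1.1.20160309, per the submitters' processing notes and methods. The study's methods give a p-value threshold and its results a q-value cutoff. The lowest deposited −log10 q-value was 2.03 to 2.07, so each list ends at a threshold on q. The deposited columns used were peak and summit positions, the authors' fold enrichment (a ratio of scaled summit reads to local background), and their −log10 p-value and −log10 q-value. The deposited score was 10 times the −log10 q-value without decimals for at least 99.965% of peaks and was not used further. Handling of duplicate reads is not given in the sources used here.

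Whole summit reads were solved from fold and p-value, matching within 0.002 on the −log10 scale for at least 99.996% of peaks. When the scale was set to 0.9 of its fitted value, 10.3% to 14.0% of 300 peaks per list still matched. Depth assumed a genome of 2700000000 bases and the narrowest peak as extension. TSSs were those of basic protein-coding transcripts of GENCODE v44 lifted to GRCh37; chromosome names and lengths fitted the peaks. A gene was represented by its promoter peak of highest fold, and percentiles by fold run from 0 to 100 within a list. Values per library were tested by permuting the library labels exactly, two-sided. With 2 against 2 there are 6 splits and no p under 0.333, so no test here could pass 0.05. Each p ranks the observed difference among the splits of these libraries only, and does not measure the spread between them. Counting error alone limits a summit of 17 to 117 reads.

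The members, gene lists, tests and alternatives were chosen with earlier results of these data known. All 33 members were accounted for by complex. The rule named, with values per library, members occupied in all 4 lists, lacking a TKO peak, among the 5 of highest or 5 of lowest mean TKO percentile, or with an E-box in both TKO lists, and TOMM5; values of the other members were added after they were seen. Alternatives were windows of 500 bp and 3 kb, a −log10 q-value of at least 5, lists of 3720 peaks, all transcripts, the nearest gene, the peak nearest the TSS, rank by p-value, other E-box settings, scaling by extension, each library left out and a replicate block. The work ran in Python 3.11.15 (pandas 2.3.3, numpy 2.4.6, pysam 0.24.0, matplotlib 3.10.9, scipy 1.17.1). Only the recovery of summit reads and the assignment of peaks to promoters were tested on simulated data. The simulated backgrounds lay below those at many member summits, TOMM5 and TOMM6 in parental cells among them.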

Additional observations from a re-analysis of the deposited data

How the results depend on the processing

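Of 87 recomputed values, 84 kept their direction, and counts stayed within 1.5 times. The exceptions are these. In lists of 3720 peaks the difference in the number of occupied import genes was 2.5 in place of 15, and 2 genes in place of 13 had a peak in both TKO lists and no parental list; the shorter TKO lists are the construction of that alternative. With the peak nearest the TSS, the difference in absolute offset was -1.0 bp in place of 13.2 bp, and the cause was not tested. Leaving out 1 library gave 13 to 17 for the number, 13 to 17 genes in TKO alone, 15 to 19 genes in all lists, 9.75 to 16.8 bp for the offset, 2.08 to 2.30 for the width ratio, 16.2 to 41.1 for the percentile, -32.6 to -1.73 percentage points for the E-box share and 2.29 to 2.90 for the ratio of summit reads. The percentile difference was 16.2 without parental replicate 2, and the E-box difference was -1.73 without parental replicate 1. Ranking by −log10 p-value gave 13.5 for the percentile difference, lists of 3720 peaks gave 1.17, and E-box windows of 100 bp gave -8.86 percentage points. The labels do not say that replicate numbers mark a shared batch. Over 1843 genes the correlation of same-numbered deviations was 0.0722, and a replicate block gave 15, 13.2, 2.20, 28.6, -17.2 and 2.59 for the 6 tested values (exact permutation p = 0.5, the smallest that 2 pairs allow). A summit under a list's threshold cannot be told apart from none.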

Other observations

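A summit 1 to 10 kb from a TSS was present at 0 and 1 of the 33 members in parental replicates 1 and 2, and at 5 and 8 in TKO, beside 4.34%, 6.68%, 24.8% and 25.1% of all protein-coding genes. The shares of the members were 0.0%, 3.03%, 15.2% and 24.2%. The single parental case was TIMM8B, which had no parental promoter peak and a summit 3713 bp from its TSS in parental replicate 2. TOMM6 had 2 and 3 such summits in TKO. More than 1 promoter peak was found at 3 of 15 and 5 of 19 occupied members in parental cells against 8 of 32 and 7 of 32 in TKO, beside 10.4%, 9.06%, 32.1% and 29.5% of all occupied genes. GRPEL1 had 4 in TKO replicate 1. HSPA9 and TIMM22 had 2 promoter peaks in each parental list and 1 in each TKO list. IMMT, the core MICOS subunit, had 1.59 and 1.89 RPM in parental cells against 5.82 and 4.99 in TKO, and was the only MICOS gene with a promoter peak in all 4 lists.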
